A study of Homo sapiens with 12 samples.

Results

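Of the 1841 ChIP-seq summits on chromosomes 1 to 22 and X, 1088 lay more than 10000 bp from every gene of any type in GENCODE 44 (GRCh38), and these are described here. A summit is the base at which a region of enriched reads was highest, and the libraries were immunoprecipitates of an EGFR chimera by its GluGlu tag. The members were unequally divided among the 4 lists. Minus AP replicate 1 held 414, plus AP replicate 1 held 669, plus AP replicate 2 held 5 and minus AP replicate 2 held none. Almost all members of the replicate 1 lists lay in satellite DNA at or beside centromeres, with chromosomes 1, 5 and 19 holding 565 of the 1088 (51.9%).

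The series comprised 12 libraries from B2B1 cells. These are a single clone of MCF10A-5E, an established human breast epithelial line, with retroviral chimeras of human EGFR (GluGlu tag) and rat Erbb2 (HA tag), each bearing an NGFR extracellular domain. AP (AP21967) is a synthetic ligand by which the chimeras are heterodimerized, and both conditions carried both chimeras. Cells grew as overlay cultures in EGF-containing medium with Matrigel until day 7, and for the last 24 h received 0.5 µM AP (plus AP) or 0.1% ethanol (minus AP). The 4 GluGlu lists, 2 replicates for each condition, were used. The other 8 libraries, of input chromatin or naive IgG, were not analysed here, and whether these positions are enriched in a control is therefore not known. The lists report no expression, so the cell type was not checked against markers.

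Centromeres of human chromosomes are built on alpha satellite, a tandem repeat of a short monomer whose copies are arranged in arrays particular to a chromosome or to a small group of chromosomes. A subset of monomers carries the CENP-B box, the site bound by centromere protein B. The heterochromatin beside centromeres holds other satellites, among them the classical human satellites built of near-perfect or diverged copies of the pentamer CATTC. Such sequence is nearly free of genes. In GRCh38 the alpha satellite arrays are models assembled from reads, and large blocks of heterochromatin are gaps of unknown bases.

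To show what the members look like, the sequence around the highest-scoring alpha satellite member with a CENP-B box on each of chromosomes 1, 5 and 19 was read over the length of 1 monomer from GRCh38, in the orientation of the box. Capitals mark the core searched, which is TTCG, any 4 bases, A, any 2 bases, then CGGG.
chr1:124568476-124568646, plus strand: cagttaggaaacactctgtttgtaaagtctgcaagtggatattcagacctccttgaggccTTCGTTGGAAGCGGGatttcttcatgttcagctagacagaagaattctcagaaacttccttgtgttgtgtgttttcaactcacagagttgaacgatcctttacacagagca
chr5:49630937-49631107, minus strand: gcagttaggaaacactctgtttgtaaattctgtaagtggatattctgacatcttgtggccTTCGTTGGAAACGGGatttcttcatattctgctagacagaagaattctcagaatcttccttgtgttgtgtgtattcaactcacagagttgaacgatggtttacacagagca
chr19:26782749-26782919, plus strand: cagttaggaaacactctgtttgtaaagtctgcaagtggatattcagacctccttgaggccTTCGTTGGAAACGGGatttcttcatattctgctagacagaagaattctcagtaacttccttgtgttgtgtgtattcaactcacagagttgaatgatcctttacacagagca
The chromosome 1 and 19 sequences differed by 6 edits (identity 96.5%), those of chromosomes 1 and 5 by 14 (91.8%) and those of chromosomes 5 and 19 by 12 (93.0%). The 75-bp sequence found in most member windows, shown because it was the same on all these chromosomes, lay within 250 bp of 144 members.
shared 75-bp sequence: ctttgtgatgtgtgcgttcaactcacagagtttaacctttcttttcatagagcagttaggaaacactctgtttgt
It occurred 708 times on chromosome 1, 690 times on chromosome 5 and 687 times on chromosome 19 in the reference, and these chromosomes held 41, 48 and 53 of the 144 members. The highest-scoring members on chromosomes 1 and 4 with the pentamer but without the alpha satellite period are shown next. They stand for the diverged and the near-perfect form of the pentamer repeat, with each CATTC or GAATG in capitals.
chr1:143213154-143213304, plus strand: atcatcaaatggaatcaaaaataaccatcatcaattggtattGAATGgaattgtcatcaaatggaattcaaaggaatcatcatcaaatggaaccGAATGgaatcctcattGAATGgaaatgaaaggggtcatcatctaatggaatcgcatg
chr4:49149378-49149528, plus strand: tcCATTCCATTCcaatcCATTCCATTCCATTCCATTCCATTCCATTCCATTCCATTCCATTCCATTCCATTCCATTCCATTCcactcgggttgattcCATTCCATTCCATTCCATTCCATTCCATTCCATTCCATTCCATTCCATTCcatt
The member with the highest score of plus AP replicate 1 lay in neither of these repeats but in an AT-rich tandem repeat.
chr3:93470505-93470673, plus strand: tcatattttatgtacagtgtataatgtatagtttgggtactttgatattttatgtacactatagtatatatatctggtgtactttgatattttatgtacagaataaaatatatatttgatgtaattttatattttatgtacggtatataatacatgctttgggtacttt

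The replicates stood apart before any comparison of conditions. In minus AP replicate 1, 414 of 582 summits were members (71.1%, with a 95% Wilson interval of 67.3 to 74.7) and in plus AP replicate 1, 669 of 907 were (73.8%, 70.8 to 76.5). For replicate 2, the plus AP list had 5 of 296 (1.69%, 0.724 to 3.89) and the minus AP list 0 of 56, which allows a share of up to 5.36%. Of the known bases of these chromosomes, 26.6% lie this far from genes, so that the replicate 1 lists were above and the replicate 2 lists below that level. The mean share was 35.6 ± 50.3% without AP and 37.7 ± 51.0% with AP (SD, n = 2 each). The difference of 2.16 percentage points was far smaller than the spread between replicates (two-sided exact permutation test over libraries, p = 0.667, where the smallest p that 2 against 2 libraries allow is 0.333). Leaving out single libraries moved this difference to between −33.9 and 38.2 points, so its sign rested on which replicate was left. Within replicate 1 there was 1 library for each condition, and what follows on AP is a description of those libraries. Intervals cover counting error only and treat summits as independent.

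Members of the replicate 1 lists lay a median of 663 kb (minus AP) and 851 kb (plus AP) from the nearest gene. The most distant, at chr1:125183731 in minus AP replicate 1, was 3.60 Mb from LINC01691. The 10000-bp limit cut few of these summits, because those nearest to it were sparse. Just inside it were chr17:43315925 in plus AP replicate 2, 10528 bp from CCDC200, and chr2:89840339 in plus AP replicate 1, 11452 bp from the immunoglobulin light chain segment IGKV2D-40. Just outside were chr4:41709809 in minus AP replicate 1 and chr4:41709635 in plus AP replicate 2, which lay 9765 and 9591 bp from LIMCH1.

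Alpha satellite-like and pentamer sequence together covered nearly all replicate 1 members. The sequence within 250 bp of a summit was called periodic when it matched itself at shifts of about 1 alpha satellite monomer better, by over 10 percentage points, than at shifts slightly shorter. It was called pentameric when it held more than 10 copies of CATTC or GAATG. By these criteria 409 of 414 members of minus AP replicate 1 (98.8%, 97.2 to 99.5) and 652 of 669 of plus AP replicate 1 (97.5%, 96.0 to 98.4) were satellite, against 2.63% of windows spaced along the chromosomes and 9.10% of the windows that were also far from genes. None of the 5 members of plus AP replicate 2 was satellite, and neither was any of all 296 summits of that list. Summits nearer to genes in the replicate 1 lists were satellite in 4.76% (minus AP) and 3.36% (plus AP) of cases, 8 in each list. Of the 1083 replicate 1 members, 749 had the period only, 272 the pentamer only, 40 both and 22 neither. No member held a telomere-like window, meaning 5 or more copies of TTAGGG or its reverse complement.

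The members of the 2 replicate 1 lists differed in makeup mainly through the period class. With 1 library for each condition and depth unknown, a part of AP in this was not tested. The pentamer class had 129 members without AP and 143 with AP, which was 31.2% (26.9 to 35.8) and 21.4% (18.4 to 24.6) of the members. The period class had 264 and 485, or 63.8% (59.0 to 68.3) and 72.5% (69.0 to 75.7). The whole lists, of which members were the larger part, differed in the same direction. Of all their summits 22.2% and 15.9% had the pentamer only, and 46.7% and 54.2% the period only. The CENP-B box core, which the classes did not use, was found on either strand in 664 of all 1088 member windows and in 659 of the 749 with the period only. It was found in none of the 312 pentamer windows. The background for that core was 1.74% of windows spaced along the chromosomes and 6.48% of those also far from genes.

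Chromosome 1 held 250 members, 101 of them from minus AP replicate 1, 147 from plus AP replicate 1 and 2 from plus AP replicate 2. Chromosome 5 followed with 60 without AP and 116 with AP, chromosome 19 with 52 and 87, and chromosome 10 with 45 and 75, all in replicate 1. Chromosomes 1, 5 and 19 together had 51.4% of the members of minus AP replicate 1 and 52.3% of those of plus AP replicate 1. The longer plus AP list had more members on 20 chromosomes, whereas chromosomes 4 (38 against 35), 16 (23 against 22) and 17 (17 against 14) had more in minus AP replicate 1. All 23 chromosomes had a member, but 6 had 10 or fewer.

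**Figure D1:**
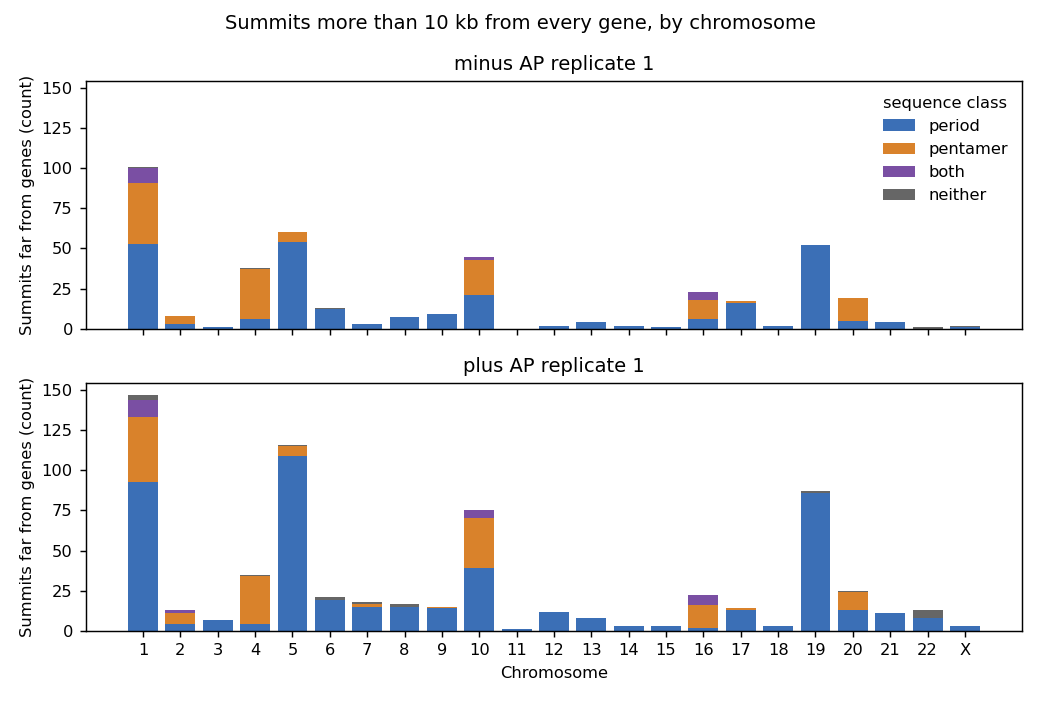
Number of summits more than 10 kb from every gene on each chromosome (x axis) in minus AP replicate 1 (upper panel) and plus AP replicate 1 (lower panel), stacked by sequence class (period, pentamer, both or neither). Chromosomes 1, 5, 19 and 10 stand highest in both lists, and chromosome 4 is made up mostly of the pentamer class.

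For the period class, these counts did not follow the amount of satellite in the reference. Chromosomes 1, 5 and 19 held 15.8% of the periodic reference windows and 467 of the 789 replicate 1 members with the period (59.2%). That was 199 members for every 1000 periodic windows sampled from the reference at 5000-bp steps. Chromosome 11 had 6.10% of the periodic windows and 1 such member, chromosome 18 had 6.94% and 5, and chromosome X had 5.90% and 4. The pentamer class followed it on some chromosomes. Chromosomes 10, 16, 20 and 2 had 15.5%, 16.6%, 7.04% and 4.97% of the pentamer windows of the reference and 19.2%, 11.9%, 8.01% and 4.49% of the pentamer members. However, chromosomes 1 and 4 had 6.83% and 5.18% of the reference windows but 31.4% and 19.6% of the members, while chromosome 21 had 7.45% and none.

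The arrays differed in sequence as well as in number. Best matches were sought at 1 to 12 monomers, in a longer window than the one used for the classes. Longer repeat units could therefore not be found. For period-only members on chromosomes 1, 5 and 19, the best match of the surrounding sequence to itself was at 2 monomers in 405 of 447 windows (90.6%), most often at a lag of 340 bp. Elsewhere 117 of 302 (38.7%) had their best match there, among them 58 of 60 on chromosome 10 and 26 of 31 on chromosome 6. Windows on chromosome 8 and chromosome 17 matched best at 1 monomer (18 of 22 and 27 of 29), those on chromosome 7 at 6 monomers (12 of 18) and all 4 on chromosome X at 12 monomers, with a median match of 96.8%. The CENP-B box core was in 94.0% of the chromosome 1, 5 and 19 windows and in 79.1% of the others.

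Sequence was shared mostly within groups of chromosomes. Of the 75-bp sequences in chromosome 1 windows, a mean of 95.1% also occurred on chromosome 5 and 95.1% on chromosome 19, and windows on chromosome 19 shared 99.3% with chromosome 1 and 100% with chromosome 5. A separate group was formed by chromosomes 13, 14, 21 and 22, among which 80.0 to 100% was shared. Lower shares crossed these groups. Windows on chromosome 16 shared 22.4% with chromosome 1 and 22.3% each with 5 and 19, those on chromosome 2 shared 14.9% with 20, those on 18 shared 13.1% with 9, and those on 1, 5 and 19 shared 8.24 to 9.97% with 7. Windows on chromosomes 3, 4, 6, 8, 11, 17 and X shared under 1% with any other of these chromosomes, the highest being 0.841% for chromosome 8.

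**Figure D2:**
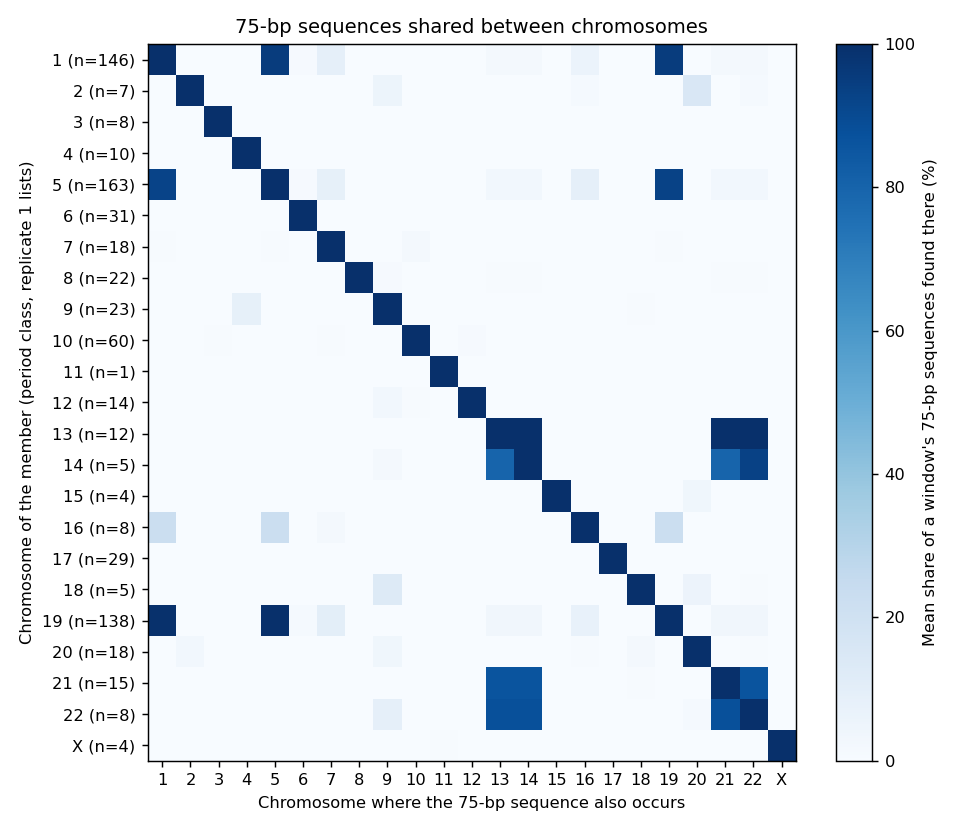
Mean share (%) of the 75-bp sequences within 250 bp of period-only members of the replicate 1 lists (rows, by chromosome of the member, n = windows) that also occur on each chromosome of the reference (columns). Dark squares off the diagonal join chromosomes 1, 5 and 19, and chromosomes 13, 14, 21 and 22.

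Repetition at the length of the reads was measured for all classes. Windows in which 90% or more of the 75-bp sequences, 75 bp being the read length, had another copy in the reference were called repeated. This held for 227 of 414 members of minus AP replicate 1 (54.8%, 50.0 to 59.6) and 414 of 669 of plus AP replicate 1 (61.9%, 58.1 to 65.5). Of all summits of these lists 48.8% and 55.5% were in such windows. It held for none of the 5 members of plus AP replicate 2 and for none of all 296 summits of that list. The classes differed widely. Among period-only members 78.8% without AP and 80.2% with AP were in repeated windows, with median copy numbers of 34.5 and 36. Of pentamer-only members 9.30% and 10.5% were, with a median copy number of 1 in both lists. Pentamer windows of chromosome 1, of either kind, stood higher. At chr1:143185175-143266766, 32 of 85 were repeated, with a median copy number of 4. At chr1:125151190-125183731 the median was 5, with none of 13 windows repeated. In 202 of 414 and 380 of 669 members every 75-bp sequence had another copy. The authors kept only uniquely mapped read pairs, and how reads were placed in such windows was not tested.

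Members clustered in a few pericentromeric blocks. When neighbours within 1 Mb were chained, 1074 of the 1088 fell into 36 blocks and 14 stood alone, 5 of them the members of plus AP replicate 2. The 10 largest blocks held 853 members (78.4%) in 15.9 Mb, which is 0.547% of the known bases. Both replicate 1 lists contributed to 32 of the 36 blocks, plus AP replicate 1 alone to 3 and minus AP replicate 1 alone to 1, and no block held a replicate 2 member. Centromeric spans were located from the period in the reference sequence, and 28 blocks touched one. Within 5 Mb of a span lay 357 of 414 members without AP (86.2%, 82.6 to 89.2) and 609 of 669 with AP (91.0%, 88.6 to 93.0) in replicate 1, against 9.49% of windows along the chromosomes and 16.04% of those also far from genes. Of all summits of the replicate 1 lists 69.4% (minus AP) and 76.2% (plus AP) lay there, and of those nearer to genes 28.0% and 34.5%. None of the 5 replicate 2 members did, against 8.11% of all summits of plus AP replicate 2. With 1 minus AP library that has members, no test over libraries of the satellite, repeated or pericentromeric share could pass a threshold (smallest exact permutation p = 0.333).

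The largest block, chr5:47079166-49757894, held 60 members without and 115 with AP in 2.68 Mb with no annotated gene, 638298 bp from EMB. Of these 163 had the period and 12, at chr5:49602088-49666240, the pentamer. The chromosome 1 array at chr1:121610437-125183731 held 59 and 104, of which 146 had the period only, and its nearest gene was LINC01691, 29.9 kb away at one end. The chromosome 19 block, chr19:24878586-27181562, held 52 and 86, all of the period class and all in repeated windows. No member of it ranked above 136 in minus AP replicate 1 or 171 in plus AP replicate 1. The chromosome 10 block, chr10:39954468-42104771, was mixed, with 60 period-only, 53 pentamer-only and 7 windows of both kinds (45 members without and 75 with AP), and lay 44539 bp from the pseudogene KSR1P1.

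Blocks with many members per Mb included pentamer satellite, but not all of them did. Of the period class only were chr16:38268439-38280150, with 5 members at 427 per Mb, and chr9:60631455-60674998, with 7 at 161 per Mb. At chr1:143185175-143266766, 85 members lay in 81.6 kb, equal to 1042 per Mb, with 42 from minus AP and 43 from plus AP replicate 1, and every window was pentameric with 19 to 29 copies. This block is 18.1 Mb from the centromeric span, but 18.0 Mb of that distance are unknown bases. The block at chr4:49092109-49740398, 30028 bp from CWH43, held 35 and 33 members, of which 61 were pentameric with 41 to 67 copies. At chr16:34572112-34624323 there were 10 and 12 members in 52.2 kb, and on the far side of a gap, at chr16:46380902-46400132, 8 and 8 in 19.2 kb. The chromosome 20 block at chr20:29998313-31186846 had 14 and 13 members, at 22.7 per Mb over its whole length. The chromosome 5, 19 and 1 arrays had 65.3, 59.9 and 45.6 per Mb. However, 25 members of the chromosome 20 block were pentamer-only, and these all lay in a small part of it, at chr20:31052327-31186846. The 22.7 per Mb is therefore not the density of its pentamer satellite. The remaining blocks among the 10 largest, chr6:58450779-59821068 (12 and 20 members) and chr8:44056220-45929952 (7 and 16), were of the period class except for 1 window each.

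Unknown bases accounted for most of the members outside the 5-Mb limit. The blocks of chromosome 1 at 143 Mb, chromosome 16 at 46.4 Mb and chromosome 9 at chr9:60631455-60674998 were separated from their spans by 116317, 901 and 112896 known bases. When unknown bases were not counted, an alternative chosen after seeing the data, 99.3% and 99.1% of the replicate 1 members lay within 5 Mb, and 14 of all 1088 did not.

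**Figure D3:**
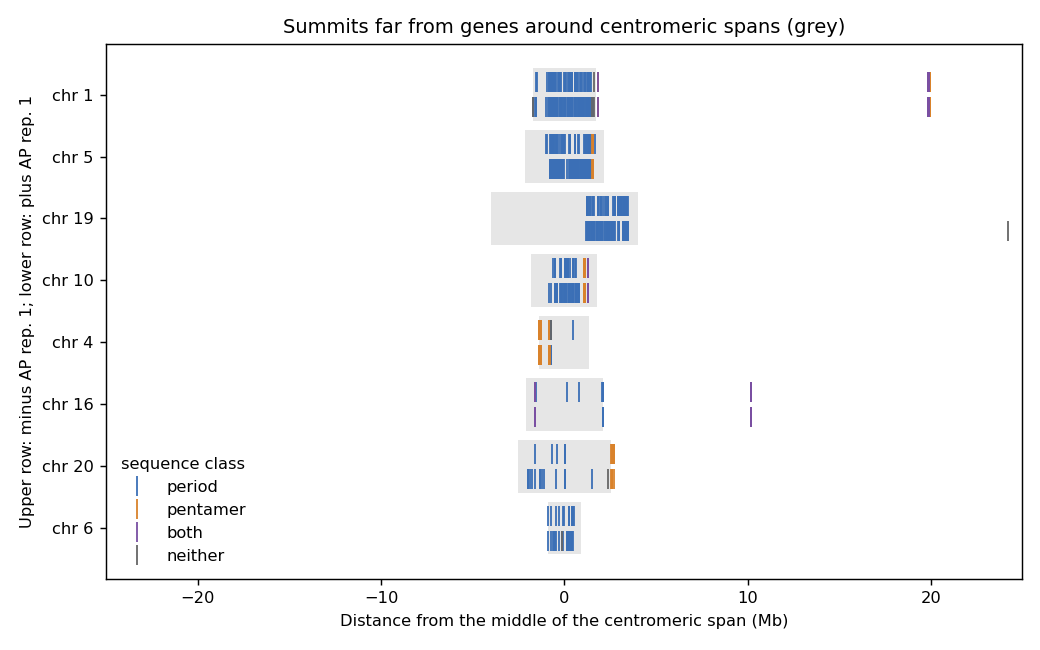
Distance of each replicate 1 member from the middle of the centromeric span (x axis, Mb) for the 8 chromosomes with most members, coloured by sequence class. For each chromosome the upper row is minus AP and the lower row plus AP, and grey bars are the spans. Members fall within or beside the spans, and 85 of the 98 pentamer members of chromosome 1 and 16 of the 37 of chromosome 16 stand beyond large gaps of unknown bases. Members more than 25 Mb away are not drawn.

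Members supplied the highest scores of both replicate 1 lists. The score is the authors' −log10 of the q-value and was compared only within a list, except to choose the sequences shown. All of the 20 highest-scoring summits of minus AP replicate 1 on these chromosomes were members, and so were all 20 of plus AP replicate 1, while 91 and 92 of the top 100 were. Plus AP replicate 2 had none among its top 20 or top 100, but only 5 of its 296 summits (1.69%) were members. Minus AP replicate 2 held no members, so for it this was fixed in advance. Over whole lists the median percentile of members was 52.8 (minus AP) and 51.4 (plus AP) in replicate 1, and that of other summits 44.9 and 46.4. For plus AP replicate 2 these medians were 42.7 and 52.4. The mean difference was 1.12 points over these 3 libraries and did not pass the test fixed for it (two-sided exact sign permutation, p = 1.0, smallest possible 0.25). It was 7.78 points over all 4 libraries when only protein-coding genes set the distance.

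The rank of members followed sequence class. Pentamer-only members had a median percentile of 81.2 in minus AP replicate 1 and 85.3 in plus AP replicate 1, and members of both kinds 94.4 and 93.3. Period-only members had 42.2 and 41.7. The top of the list was shared by the 2 conditions. The same base, chr3:93470589, ranked 2 in minus AP replicate 1 (score 380.3) and 1 in plus AP replicate 1 (609.1). Summits at chr1:125180199 (429.5, rank 1) and chr1:125180193 (585.2, rank 2) were of both kinds, and chr1:143213230 and chr1:143213229 ranked 3 in their lists with 330.3 and 535.7.

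Not every pentamer block scored high. Median scores in the block at 143 Mb of chromosome 1 were 106 without and 138 with AP, and in that at 46.4 Mb of chromosome 16 they were 46.3 and 65.0. The pentamer windows of chromosome 4 had medians of 11.5 and 11.1, those of chromosome 20 4.71 and 5.48, and those of chromosome 2, near IGKV2D-40, 3.82 and 3.30. Chromosome 5, with a median of 52 copies of the pentamer, had 59.1 and 58.2.

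**Figure D4:**
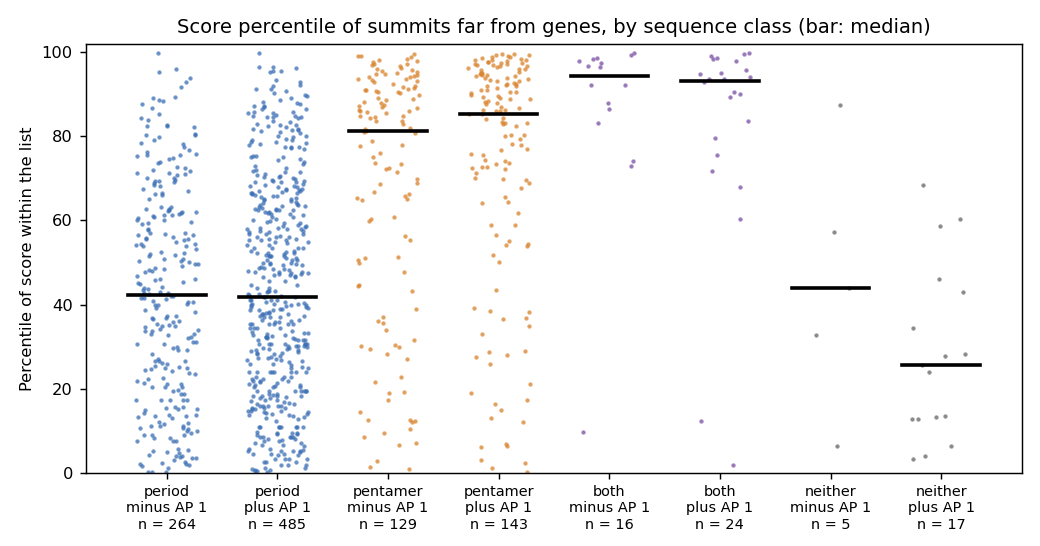
Percentile of each member's score within its list (y axis) by sequence class for minus and plus AP replicate 1. Points are members, bars are medians and n is the number of members. Pentamer members gather near the top, with medians of 81.2 and 85.3, and period members spread over the whole range, with medians of 42.2 and 41.7.

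The top summit on chromosome 3 was of the period class only by its AT-rich tandem repeat. Its window had a GC content of 23.6%, matched itself best at a lag of 42 bp (69.7%), held no repeated 75-bp sequence and lay 228 bp from a gap. RNU6-488P was the nearest gene, 373 kb away. Of all members 9 had a GC content under 30%. Of these 6 lay at chr4:49709420-49711556, near the pseudogene SNX18P25, with best matches of 73.4 to 86.7% at the same lag. Without AP their scores ranked 107, 86 and 79, and with AP 51, 91 and 53. The other was at chr22:11212930 in plus AP replicate 1 (rank 905).

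Positions of members recurred between the conditions of replicate 1, whereas the rule for members left little room for recurrence between replicates. Of the members of minus AP replicate 1, 238 of 414 had a summit of plus AP replicate 1 within 1 kb (57.5%, 52.7 to 62.2), against 60.8% of all summits of the list. In the other direction 240 of 669 did (35.9%, 32.3 to 39.6), against 40.1% of all. Shares of members were thus slightly under those of the whole lists. The median offset of the shared members of minus AP replicate 1 was 8 bp, with 132 within 10 bp and 20 at the same base. No replicate 1 member had a summit of either replicate 2 list within 1 kb. This was nearly fixed in advance, because a summit so close to a member must itself lie almost as far from genes. Only 0 (minus AP) and 7 (plus AP) replicate 2 summits lay more than 5000 bp from every gene. Recurrence with replicate 2 was thus confined by the rule to summits nearer to genes, almost without exception. Over all summits such recurrence was found, in 6.19% (minus AP replicate 2) and 7.90% (plus AP replicate 2) of the minus AP replicate 1 list and in 4.85% and 7.94% of the plus AP replicate 1 list, and all of it came from summits nearer to genes. None of the 5 replicate 2 members had a summit of any other list within 1 kb. Of all summits of plus AP replicate 2, 16.6% (minus AP replicate 1), 17.2% (minus AP replicate 2) and 25.3% (plus AP replicate 1) did. For minus AP replicate 2, which held no members, this too was fixed by the rule.

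Recurrence was uneven among the classes. In minus AP replicate 1, 116 of 129 pentamer-only members (89.9%, 83.5 to 94.0) and all 16 of both kinds were shared with plus AP replicate 1, and 103 of 264 period-only members (39.0%). From plus AP replicate 1 the shares were 79.7% (72.4 to 85.5), 83.3% (64.1 to 93.3) and 21.4% (18.0 to 25.3). Score moved with this, and repetition did so within the period class only. Among members of minus AP replicate 1 that scored above the members' median, 95.3% of pentameric and 61.6% of period-only members were shared, and at or under the median 79.5% and 25.5%. Period-only members were shared in 31.7% of repeated windows and 66.1% of the others. In plus AP replicate 1 these last shares were 16.2% and 42.7%. Pentameric members were not shared less in repeated windows. In minus AP replicate 1 all 17 in repeated windows and 89.8% of the 128 others were shared, and in plus AP replicate 1 81.0% of 21 and 80.1% of 146. The part of score and repetition in the difference between classes was not tested.

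**Figure D5:**
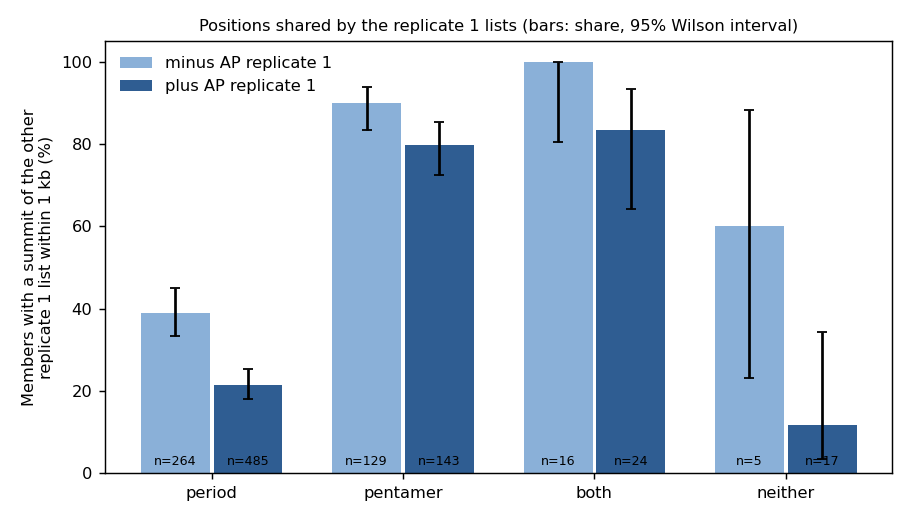
Share of replicate 1 members with a summit of the other replicate 1 list within 1 kb (y axis, %), by sequence class, for members of minus AP (light) and plus AP (dark) with 95% Wilson intervals and n. Pentamer members were shared in 89.9% and 79.7% of cases and period members in 39.0% and 21.4%.

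Within a list, members were spaced more widely than other summits. The median distance to the nearest member of the same list was 7598.5 bp in minus AP replicate 1 and 8109 bp in plus AP replicate 1, against 2971.5 and 1697.5 bp among other summits. Another member lay within 1 kb of 57 of 414 (13.8%, 10.8 to 17.4) and 86 of 669 (12.9%, 10.5 to 15.6), and the closest pair was 302 bp apart. Among other summits these shares were 16.1% and 28.2%.

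The 22 replicate 1 members of neither class included 16 within 5 Mb of a span. Chromosome 22 held 6 of them, at chr22:11022253-12692151, of which chr22:11815669 in minus AP and chr22:11815681 in plus AP lay 12 bp apart and about 11.8 kb from the lncRNA ENSG00000290397. Away from centromeres both replicate 1 lists had a summit near IRF4, a transcription factor gene of the interferon regulatory factor family, at chr6:371823 (score 2.04, 19916 bp away) and chr6:371850 (6.08, 19889 bp). This window repeated itself at a lag of 39 bp with matches of 79.0% and 80.1%, and is shown as an example of a member in a short tandem repeat.
chr6:371800-371900, plus strand: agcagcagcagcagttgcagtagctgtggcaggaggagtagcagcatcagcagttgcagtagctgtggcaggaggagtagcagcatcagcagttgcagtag
Of the period class, and so not among these 22, both lists had a summit at the distal end of chromosome 4. These were chr4:189235151 (4.39) and chr4:189235156 (9.61), and their windows held no CENP-B box core.

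The 5 members of plus AP replicate 2 lay in sequence that was not repeated. Their 75-bp sequences all occurred once in the reference, they were not periodic or pentameric, and none ranked among the top 100 of the 297 summits of that list. Their GC content was 41.5 to 56.7%. Of all 296 summits of that list on these chromosomes, 294 (99.3%) held no repeated 75-bp sequence and none was satellite. These traits were thus not particular to the 5 members. A summit at chr1:201260470 lay 22982 bp from PKP1, which encodes the desmosomal protein plakophilin-1, and 47.7 kb from another summit of the list inside that gene. The summit at chr1:209412265 lay 16552 bp from MIR205HG, the host gene of the microRNA miR-205, and 16562 bp from the highest-scoring summit of that list. The other lists also had summits within or beside MIR205HG, 16.3 to 16.6 kb from this member. The summit at chr17:43315925 lay 10528 bp from CCDC200, and 45.4 kb from a summit of rank 4 inside the lncRNA LINC00910. Both replicate 1 lists had a summit inside CCDC200, 15.7 kb (minus AP) and 15.9 kb (plus AP) from this member. The summit at chr7:106065442 lay 25063 bp from SYPL1. For comparison with the satellite members, the sequence around these 4 summits is given.
chr1:201260420-201260520, plus strand: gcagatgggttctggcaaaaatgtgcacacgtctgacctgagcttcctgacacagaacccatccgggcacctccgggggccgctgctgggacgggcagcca
chr1:209412215-209412315, plus strand: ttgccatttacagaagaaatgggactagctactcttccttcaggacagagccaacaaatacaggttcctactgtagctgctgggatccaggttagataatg
chr17:43315875-43315975, plus strand: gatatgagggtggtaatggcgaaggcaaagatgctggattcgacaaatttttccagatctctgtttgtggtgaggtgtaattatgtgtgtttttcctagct
chr7:106065392-106065492, plus strand: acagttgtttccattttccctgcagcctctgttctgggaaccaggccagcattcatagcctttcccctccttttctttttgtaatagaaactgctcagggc

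The last member of that list, at chr8:142948422, lay 30579 bp from CYP11B2, the aldosterone synthase gene, and 332 kb from the nearest summit of the list. In plus AP replicate 1, 1 member was likewise of neither class, with no repeated 75-bp sequence and far from a span. It was at chr8:137462155 (rank 954), 37134 bp from the pseudogene ZYXP1.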

How the data were processed

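Summit lists were analysed for 4 GluGlu immunoprecipitates of B2B1 cells, mapped to condition and replicate by their labels. According to the methods and the submitters' processing notes, paired 75-bp reads were checked with FastQC 0.11.5, aligned to GRCh38 with Bowtie2 2.2.9, kept when uniquely mapped and not duplicated, and peaks were called for each library separately with MACS2 2.2.7.1 against input chromatin, although the results of the study speak of naive IgG. Scores were deposited as −log10 of the MACS2 q-value of each summit. The lists held 739, 56, 1094 and 297 summits (minus AP replicates 1 and 2, plus AP replicates 1 and 2) with scores from 1.31. Depth is unknown because the lists give no read numbers, so where a list has no summit, none was detectable. Where replicates came from is not stated beyond the label of biological replicate.

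Distances to genes used GENCODE 44 and sequence came from GRCh38 without alternate haplotypes, whose contig names matched those of the lists. Repeats were counted as exact 75-bp copies on both strands in the 501-bp window around a summit, a threshold of 90% defining a repeated window. The period was the best self match over lags of 168 to 174 bp against that over 150 to 156 bp. Background windows of the same length were taken every 5000 bp. A share of 0 allows 3 counts of the total. Named regions were the 10 largest blocks, the highest-scoring member of each list, all members of lists with 30 or fewer, positions shared between replicate 1 and 2 lists (none were found) and the members next to the 10000-bp limit, with their nearest genes. Other members named, the printed chromosome 5, 19, 4 and 6 sequences and the shared 75-bp sequence were chosen after their values were seen. The members and criteria were chosen with earlier results of these data known. The chance tests were exact permutations over libraries. Python 3.11.15, numpy 2.4.6, pandas 2.3.3, scipy 1.17.1, numba 0.67.0 and matplotlib 3.10.9 were used, and the sequence measures were tested on simulated data. Alternatives changed the distance from genes, the gene types, the minimum score, the merging of summits, the thresholds, the window (2001 bp, with more than 40 pentamers) and the libraries used.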

Additional observations from a re-analysis of the deposited data

How the results depend on the processing

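Of 147 alternative values, 9 changed sign and 24 moved. The other 114 stayed within these limits. For differences that means the same sign only, and differences between conditions did not always keep their size. Differences between conditions (plus minus minus AP, percentage points, with none able to pass a threshold) followed the libraries used. The difference of the member share was −1.86 with protein-coding genes only, and without single libraries −33.9 (plus AP replicate 1), −33.4 (minus AP replicate 2), 37.7 (minus AP replicate 1) and 38.2 (plus AP replicate 2). The satellite share gave −50.1 (−98.8 to −1.33 without single libraries). The repeated share gave −23.9, but 3.87 with protein-coding genes only and −54.8 to 7.05 without single libraries. The pericentromeric share gave −40.7, but 6.93 with protein-coding genes only and −86.2 to 4.80 without single libraries. The satellite difference was −0.127 with protein-coding genes only. The mean rank difference between members and other summits (1.12 points) was 2.02 at 5000 bp, 2.78 at 20000 bp and 7.78 with protein-coding genes only, with exact permutation p from 0.375 to 1.0 over its alternatives. With a replicate block, which pairs the libraries by number, the differences were 2.16, −1.33, 7.05 and 4.80. The labels share numbers, but with 2 pairs, of which 1 has no members without AP, the numbers were not treated as pairing the samples.

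For replicate 1 (minus AP, then plus AP), protein-coding genes only gave member shares of 85.9% and 87.5%, satellite shares of 83.0% and 82.7%, pericentromeric shares of 80.4% and 86.1%, 15.6% of plus AP members near another, and 25 replicate 1 members shared with replicate 2 lists. A 5000-bp limit gave 1 such member. A period threshold of 5 points gave satellite shares of 99.5% and 98.8%, and 15 points 95.9% and 93.4%. Repeated windows were 48.8% and 56.8% when every 75-bp sequence had to recur, and 76.6% and 82.8% at 50%. Without unknown bases, 99.3% and 99.1% were pericentromeric. Members with another within 500 bp were 0% and 0.598%, and within 5000 bp 46.1% and 39.6%. Chaining within 100000 bp gave 77 blocks, and leaving out single libraries 25 to 36.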
